A study of Mus musculus with 3 samples.

Results

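Cathepsins are the proteases of the lysosome, the acidic compartment in which cells break down proteins, and cystatin C is the secreted inhibitor of their cysteine class. The 10 genes described here were *Ctsb*, *Ctsl*, *Ctsk*, *Ctss*, *Ctsh*, *Ctsc* and *Ctsz*, which encode cysteine cathepsins, *Ctsd*, which encodes the aspartic cathepsin D, *Ctsa*, which encodes the serine carboxypeptidase cathepsin A, and *Cst3*, which encodes cystatin C. They were chosen by name, and all 10 were among the 55422 genes of the count tables. The choice was made with earlier results of these counts known, among them the level of *Ctsb* in septoclasts, so the values of *Ctsb* in septoclasts are a description here. The cells were chosen by the UMIs (unique molecular identifiers, each standing for a captured transcript) of marker genes, and none of the 10 genes was a marker.

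The study examined septoclasts (SCs), perivascular cells at the border of growth plate cartilage and bone, in long bones of untreated C57BL/6 mice aged 3 weeks. It made 2 libraries of metaphyseal cells of male C57BL/6J mice after magnetic depletion of haematopoietic cells, and 1 library of cells sorted for GFP from the metaphysis and epiphysis of femur and tibia of male heterozygous *Pdgfra-H2B-GFP* mice, whose *Pdgfra* locus drives a nuclear GFP (the *Pdgfra-GFP* library). Only the *Pdgfra-GFP* library held enough macrophages, osteoclasts, fibroblasts and superficial chondrocytes, so comparisons with those cells have no replicate of that population. Nothing says how many animals went into a library. The p-values measure how differences between populations vary over 3 libraries of different kinds, after the model removes each library's own shift. That spread was estimated from the sums of all populations in 1 fit, and may in part be technical.

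Cathepsins are made as inactive precursors, tagged with mannose 6-phosphate in the Golgi apparatus and activated in the acid that the vacuolar ATPase maintains. Cathepsin K is the collagenase with which osteoclasts dissolve bone matrix. Cathepsin S trims the invariant chain in antigen-presenting cells, cathepsin C activates the granule proteases of leukocytes, and cathepsins B and L degrade proteins in most cells. Many lysosomal genes carry the letters CACGTG near their start, a motif bound by transcription factors of the TFEB family.

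Promoter sequences were looked up for that motif because lysosomal genes are known to share it. RefSeq promoters of GRCm38.p6, 250 bases before to 50 bases after a start, were at hand for 8 of the 10 genes in 9 windows. *Ctsb* and *Ctsh* had no window, so whether they hold the motif is not known. CACGTG, which reads the same on both strands, was in 3 of the 9 windows, those of *Ctsd* and *Ctsl* and the second of *Ctsa*. The first *Ctsa* window, whose upstream part is chr2:164832622-164832871, lacked it. It was in 7.15% of all 32851 promoters. The longer TCACGTGA, which contains it, was in 0.974% of all promoters and in the *Ctsd* window and the second *Ctsa* window. The stretches that end at the base before the start are shown for *Ctsd* and *Ctsa* because these are the promoters that hold the longer motif. Capitals mark CACGTG, which begins 98 bases before the *Ctsd* start and 12 bases before the second *Ctsa* start. The stretch of *Ctsd* is chr7:142387828-142387947 on the minus strand and that of *Ctsa* is chr2:164833713-164833772 on the plus strand. A match is a description of these letters and not evidence of binding.
Ctsd: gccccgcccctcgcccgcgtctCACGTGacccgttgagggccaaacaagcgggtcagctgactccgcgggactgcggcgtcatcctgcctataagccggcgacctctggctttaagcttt
Ctsa: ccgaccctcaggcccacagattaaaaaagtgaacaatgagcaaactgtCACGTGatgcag

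The libraries held 25243314 and 22082735 UMIs (metaphyseal 1 and 2) and 91747759 UMIs (*Pdgfra-GFP*), of which 2382, 2004 and 11242 barcodes were kept as cells, with median depths of 6257, 6426 and 5330 UMIs. Marker gates placed 2013, 1726 and 7705 of these cells, and 41, 37 and 272 cells that passed several gates were left out. A gate is named by its markers only, so its cells are called SC-like, mpMSC-like (metaphyseal mesenchymal stromal cells) and so on. The SC gate held 11, 14 and 191 cells, the mpMSC gate 74, 57 and 1193, and the macrophage gate 70 cells of the *Pdgfra-GFP* library. The libraries shared 0, 9 and 10 barcodes pairwise. Levels (CPM) are a gene's UMIs scaled to 1000000 UMIs of a library's summed cells of a gate, given in the order metaphyseal 1, metaphyseal 2, *Pdgfra-GFP*. SC markers summed to 8446, 10740 and 15790 CPM in the SC gate and to 607, 304 and 426 CPM in the mpMSC gate. CPM is a share, so a population whose own marker genes take much of its RNA shows less of every other gene. The markers of osteoblasts (OBs) took 36360, 33140 and 159900 CPM in the OB gate, and haemoglobin and other erythroid markers took 413500, 487400 and 385300 CPM in the erythroid gate. The fitted log2 differences rescale each sum by TMM (trimmed mean of M values) and therefore depart from the ratio of 2 CPM values.

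The *Pdgfra-GFP* library stood apart in *Cst3*. Its near-empty droplets, which show the free RNA of a library, held *Cst3* at 6195 CPM, against 1753 and 1473 CPM in the metaphyseal libraries. Its median mitochondrial share was 0.903%, against 3.71% and 3.80%. Levels are therefore given for each library, and the model carried the library as a term. Overlaps of ranges and the order of gates set values of different libraries side by side.

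**Figure D1:**
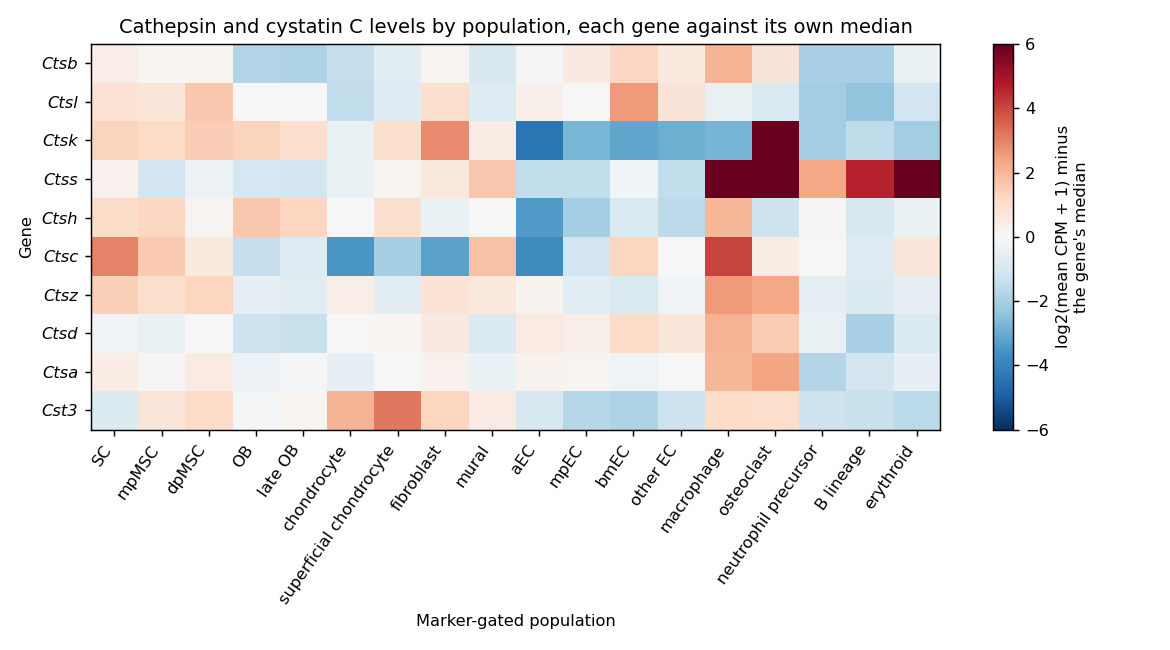
Level of each gene (rows) in 18 marker-gated populations (columns), as log2(mean CPM over libraries + 1) minus that gene's own median, so that colours compare populations within a row, with the scale ending at 6 on either side. *Ctss* reaches the upper end of the scale in the macrophage, osteoclast and erythroid columns. *Ctsk* is darkest in the osteoclast column, and *Ctsc* in the SC column is redder than in the other stromal columns.

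SC-like cells were set against mpMSC-like cells, the stromal cells of the same region, to ask whether a cell at the cartilage border carries more lysosomal protease transcripts. *Ctsc* was higher and *Cst3* was lower in SC-like cells, and the other 8 genes did not pass the test (edgeR's quasi-likelihood test on summed counts). *Ctsb*, among these 8, stands as a description only. Across all 12314 genes tested, 2.29% were called higher and 2.77% lower, beside 1 and 1 of the 10 genes. The median log2 difference was 0.14 over the 10 genes and -0.07 over all genes.

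*Ctsc* encodes dipeptidyl peptidase I, which removes dipeptides from protein ends. Its level in SC-like cells was 582, 490 and 465 CPM, and in mpMSC-like cells 227, 151 and 187 CPM. The 2 groups did not overlap, and every SC-like value was above every value of the other stromal gates. The log2 difference was 1.32 ± 0.34 (SE, n = 3 libraries), higher in 3 of 3 libraries (edgeR adjusted p = 0.0152). The call needed both metaphyseal libraries. It was lost without metaphyseal library 1 (log2 difference 1.35, edgeR adjusted p = 0.0905) and without metaphyseal library 2 (1.30, edgeR adjusted p = 0.218). Over all genes, calls in this comparison fell from 623 to 341 and 257 in these fits. The *Ctsc* call was also lost with the Wald test of DESeq2 (adjusted p = 0.199) and without the library term (edgeR adjusted p = 0.369). It held without the *Pdgfra-GFP* library (1.30, edgeR adjusted p = 0.00877), where 242 genes were called. After each cell was thinned to 2000 UMIs, a *Ctsc* UMI was found in 100% of 11, 50% of 14 and 62.8% of 188 SC-like cells (exact 95% interval 55.4% to 69.7% in the *Pdgfra-GFP* library), against 29.7%, 22.8% and 26.3% of mpMSC-like cells. Unthinned, the shares were 100%, 85.7% and 92.7% against 75.7%, 61.4% and 58.3%, at median depths of 10215, 9340 and 8550 UMIs against 9536, 9365 and 6521 UMIs. Erythroid cells, which served as the background, had 13.3% of 15, 0 of 9 (which allows a share of up to 33.6%) and 1.75% of 57 after thinning, at median depths of 10834, 10662 and 7787 UMIs, so the SC-like shares lay above it. The erythroid sum of metaphyseal library 1 had *Ctsc* at 252 CPM, beside 291 CPM of macrophage markers. Intervals cover counting error only.

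The macrophage markers C1qa, C1qb, C1qc, Fcgr1, Adgre1, Csf1r and Cd68 together reached 0, 0 and 6.50 CPM in SC-like cells, against 17350 CPM in macrophage-like cells. The macrophage gate selects on these genes, and cells that passed both gates were left out. The gates therefore set much of this contrast in advance. *Ctss*, a gene of macrophages, had 0, 0 and 12 UMIs in SC-like cells, the 12 UMIs lying in 1.05% of 191 cells. The part of macrophage RNA in the SC-like *Ctsc* level was not tested.

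The gate needs 4 of 8 SC markers, among them *Sstr2*, *Otos* or *Mmp9*. Cells with 3 markers that entered no gate had *Ctsc* at 493, 216 and 367 CPM (9, 12 and 97 cells). In the *Pdgfra-GFP* library, SC-like cells with exactly 4 markers had 451 CPM and those with 5 or more had 473 CPM. *Cst3* in the same 3 classes of that library was at 1656, 1495 and 1286 CPM.

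*Cst3* was at 616, 1082 and 1360 CPM in SC-like cells and at 1817, 2311 and 4785 CPM in mpMSC-like cells. Within each library the SC-like value was the lower, and the groups did not overlap. The log2 difference was -1.61 ± 0.29 (SE, n = 3 libraries, lower in 3 of 3), with an edgeR adjusted p of 0.000315. It was lost only without the library term (adjusted p = 0.285) and ran from -1.45 to -1.75 when a library was left out. After thinning, a *Cst3* UMI was found in 72.7%, 92.9% and 83.5% of SC-like cells, in 85.1%, 94.7% and 98.9% of mpMSC-like cells and in 33.3%, 22.2% and 45.6% of erythroid cells. Erythroid cells of the *Pdgfra-GFP* library had 809 CPM beside the 1360 CPM of SC-like cells, and the part of free RNA in the latter was not tested.

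*Ctsb* was at 521, 801 and 932 CPM in SC-like cells and at 492, 522 and 815 CPM in mpMSC-like cells. Its ranges overlapped, and its log2 difference of 0.18 had a 95% interval from -0.35 to 0.71, which leaves room for a difference in either direction. The SC-like level of *Ctsb* was known when the genes were chosen, so these values are a description and not a test. *Ctsb* UMIs were common everywhere: after thinning, 73.3%, 55.6% and 56.1% of erythroid cells held one, against 36.4%, 85.7% and 77.7% of SC-like cells. The SC-like share in metaphyseal library 1, of 11 cells, lay below that of its erythroid cells. Macrophage markers summed to 291, 51.4 and 6.21 CPM in the erythroid sums. The part of macrophage RNA in the erythroid *Ctsb* shares was not tested. *Ctsz*, the carboxypeptidase cathepsin Z, was at 521, 526 and 514 CPM in SC-like cells and at 407, 384 and 409 CPM in mpMSC-like cells, without overlap, and its log2 difference of 0.24 ± 0.22 did not pass (edgeR adjusted p = 0.698). *Ctsk* was at 252, 159 and 234 CPM in SC-like cells and at 182, 176 and 227 CPM in mpMSC-like cells, with overlap. For *Ctsl*, *Ctsh*, *Ctsd* and *Ctsa* the log2 differences lay between -0.23 and 0.40. *Ctss* was near the floor, at no more than 7.09 CPM in SC-like and 0.87 CPM in mpMSC-like cells. Its log2 difference of 2.89 ± 1.64 did not pass (edgeR adjusted p = 0.4255), and it was called higher without a filter on low counts (edgeR adjusted p = 0.00657).

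**Figure D2:**
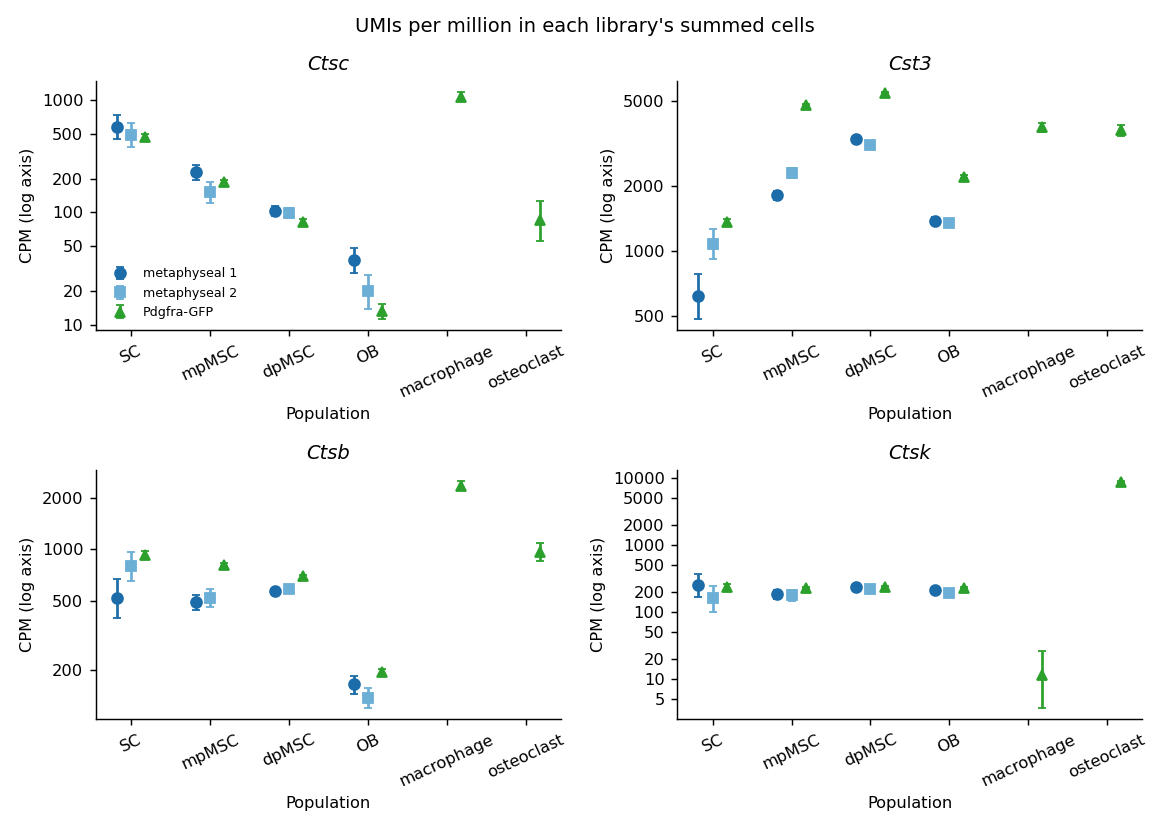
Levels in CPM (log axes) of *Ctsc*, *Cst3*, *Ctsb* and *Ctsk* in 6 gates, with 1 point per library and bars for the exact 95% Poisson interval of its UMIs. *Ctsc* falls from 465 to 582 CPM in the SC gate to 13.2 to 37.9 CPM in the OB gate, and *Ctsk* reaches 8643 CPM in the osteoclast gate against 11.3 CPM in the macrophage gate.

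Macrophages, the phagocytes of bone, served as the reference. Against mpMSC-like cells, 6 of the 10 genes were higher in macrophage-like cells and 1 was lower, where 11.2% of all genes tested were called higher and 10.6% lower. The median log2 difference was 1.75 over the 10 genes and -0.29 over all genes. The macrophage-like cells came from 1 library, so the fit assumes that their sum varies like the other sums, and the reporter was at 4.52 CPM in them against 195 CPM in mpMSC-like cells of that library. The 6 higher genes, *Ctss*, *Ctsc*, *Ctsd*, *Ctsa*, *Ctsb* and *Ctsz*, kept their calls under every alternative tried.

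*Ctss* gave the widest gap, at 2595 CPM in macrophage-like cells (1147 UMIs, Poisson interval 2447 to 2749), against 0, 0 and 0.870 CPM in mpMSC-like cells (7 UMIs in the *Pdgfra-GFP* library). *Ctsc* was at 1072 CPM and *Ctsb* at 2346 CPM in macrophage-like cells, against 187 and 815 CPM in mpMSC-like cells of that library. The log2 differences were 3.01 ± 0.43 for *Ctsc* (edgeR adjusted p = 1.33e-06) and 1.82 ± 0.35 for *Ctsb* (edgeR adjusted p = 0.000144). *Ctsd*, the aspartic protease, was at 1113 against 213 CPM, a log2 difference of 2.61 ± 0.32. *Ctsa*, which protects lysosomal galactosidase, was at 389 against 118 CPM (1.99 ± 0.28), and *Ctsz* at 1129 against 409 CPM (1.69 ± 0.29). Of the 3 genes with a promoter window that held CACGTG, *Ctsd* and *Ctsa* were among the 6 higher genes and *Ctsl* was not. *Ctss*, *Ctsc* and *Ctsz*, also among the 6, had windows without it, as did *Ctsk* and *Cst3*, which were not among the 6. *Ctsb*, also among the 6, had no promoter window to read.

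*Ctsk* went the other way, at 11.3 CPM in macrophage-like cells (5 UMIs, Poisson interval 3.67 to 26.4) against 227 CPM in mpMSC-like cells, a log2 difference of -4.47 ± 0.98 (edgeR adjusted p = 0.000714). That call was lost only without the library term (adjusted p = 0.0683). *Cst3* at 3782 against 4785 CPM did not pass (log2 difference -0.11 ± 0.40), and *Ctsl* at 294 against 659 CPM and *Ctsh* at 525 against 245 CPM did not pass either (edgeR adjusted p = 0.0774 and 0.143). *Ctsh*, an aminopeptidase, was called higher with stricter gates (adjusted p = 0.0173), after thinning (0.0216) and without a filter on low counts (0.0468). *Ctsl* was called lower without that filter (0.0159) and with 10 cells per sum (0.0482).

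SC-like cells lay below macrophage-like cells in 7 of the 10 genes and above them in 1, against 9.65% and 7.68% of all genes tested. This comparison shares the macrophage sum with the one above, and its SC side with the first. The 7 lower genes were *Ctss*, *Ctsd*, *Ctsc*, *Ctsb*, *Ctsa*, *Cst3* and *Ctsz*, of which *Ctsb* stands as a description because its SC-like level was known beforehand. *Ctsc*, the gene in which SC-like cells led the stroma, was at 465 CPM against 1072 CPM in the *Pdgfra-GFP* library, with a log2 difference of -1.69 ± 0.45 (edgeR adjusted p = 0.00583), and its call was lost with the Wald test of DESeq2 (adjusted p = 0.145) and without the library term (0.185). *Cst3* at 1360 against 3782 CPM had a log2 difference of -1.50 ± 0.38 (edgeR adjusted p = 0.00387), and its call was lost without metaphyseal library 1 (-1.33, adjusted p = 0.0600) and without the library term (0.0632). *Ctsk* was the gene that was higher, at 234 against 11.3 CPM, with a log2 difference of 4.39 ± 0.999 (edgeR adjusted p = 0.00134), a call lost without the library term (0.0815). The SC-like sums therefore differed from macrophages in both directions.

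Osteoclast-like cells (24 cells of the *Pdgfra-GFP* library, gated by *Acp5*, *Oscar*, *Ocstamp*, *Dcstamp*, *Atp6v0d2* and *Calcr*) were described with no test. *Ctsk*, the bone collagenase, was at 8643 CPM in them (2511 UMIs, Poisson interval 8308 to 8988), 36.9 times its level in SC-like cells of that library and 764 times that in macrophage-like cells. A *Ctsk* UMI was found in 75.0% of them after thinning (exact interval 53.3% to 90.2%), in 35.1% of SC-like cells and in 8.77% of erythroid cells. *Ctsa* at 516 CPM was above the macrophage value, whereas *Ctss* at 375, *Ctsc* at 86.1 and *Ctsh* at 55.1 CPM were below it. Macrophage markers, among them *Csf1r* and *Cd68*, which osteoclasts also express, summed to 1890 CPM in these cells. *Oscar*, *Ocstamp*, *Dcstamp* and *Atp6v0d2*, which mark osteoclasts, summed to 8.68, 0 and 0.591 CPM in SC-like cells, against 1683 CPM in osteoclast-like cells. These genes also define the osteoclast gate, and cells that passed both gates were left out, so the gates set much of this contrast.

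**Figure D3:**
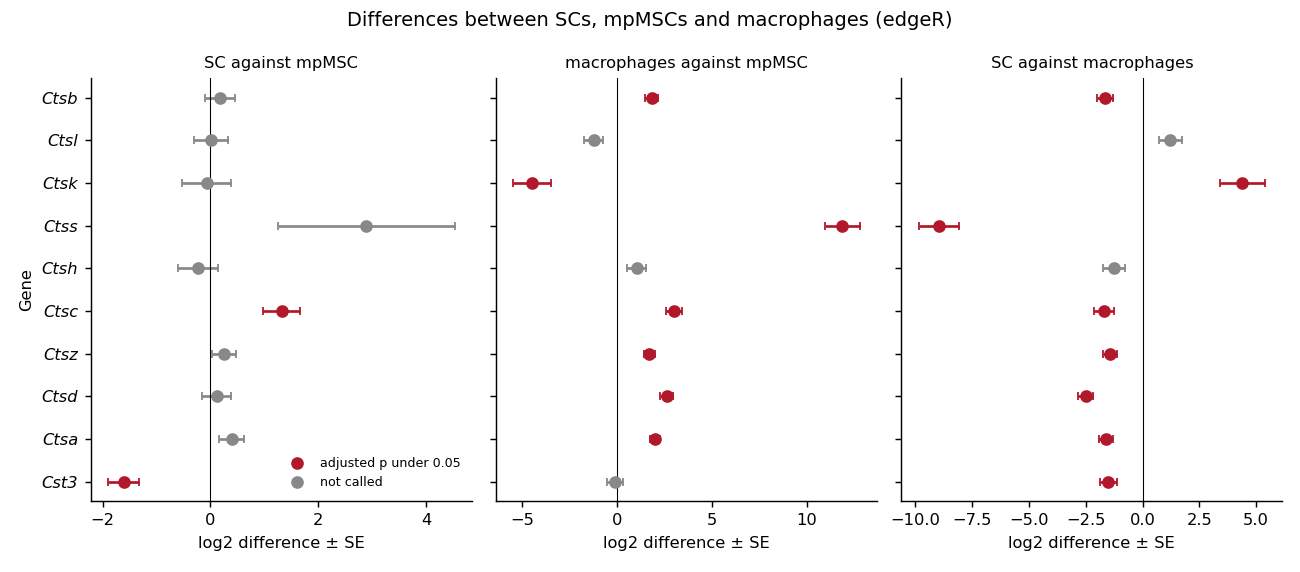
Log2 differences (points) with their SE (bars) for each gene in 3 comparisons, in red where the edgeR adjusted p is under 0.05 and in grey otherwise, with a separate horizontal scale in each panel. *Ctsc* and *Cst3* are red in the first panel, 7 genes in the second and 8 genes in the third.

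Within the stroma, dpMSC-like cells (diaphyseal mesenchymal stromal cells, which express *Lepr* and *Cxcl12*) had 1 gene higher and 2 lower than mpMSC-like cells, where 14.4% and 13.4% of all genes tested were called. *Ctsl* was at 1299, 1252 and 1263 CPM in dpMSC-like cells and at 634, 721 and 659 CPM in mpMSC-like cells, without overlap (log2 difference 0.88 ± 0.31, edgeR adjusted p = 0.0303). *Ctsh* was at 139, 145 and 168 CPM against 304, 403 and 245 CPM (-1.08 ± 0.35, edgeR adjusted p = 0.0162), and *Ctsc* at 104, 98.6 and 82.7 CPM against 227, 151 and 187 CPM (-1.05 ± 0.33, edgeR adjusted p = 0.0130). None of these 3 ranges overlapped, but the genes were picked by their calls, so this adds no separate support. All 3 calls were lost without metaphyseal library 1 (adjusted p = 0.212, 0.0661 and 0.109 in the order given), and those of *Ctsh* and *Ctsc* also without metaphyseal library 2 (0.297 and 0.0923). Without the *Pdgfra-GFP* library 6 genes were called, with *Ctsd*, *Ctsa* and *Cst3* then also higher. Calls over all genes went from 3423 to 3112 in that fit.

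OB-like cells had 1 gene higher and 3 lower, again against mpMSC-like cells, where 16.8% and 19.7% of all genes tested were called. *Ctsh* was at 492, 470 and 252 CPM in OB-like cells, against 304, 403 and 245 CPM in mpMSC-like cells (log2 difference 1.15 ± 0.35, edgeR adjusted p = 0.00814). The OB-like value was the higher in each library, though the ranges over libraries overlapped. *Ctsc* was at 37.9, 19.8 and 13.2 CPM, with a log2 difference of -2.33 ± 0.37 (edgeR adjusted p = 3.61e-06). *Ctsb* was at 164, 137 and 193 CPM (-1.03 ± 0.27) and *Ctsz* at 159, 139 and 110 CPM (-0.74 ± 0.22). In this comparison TMM moved every gene towards OB-like cells. In the *Pdgfra-GFP* library *Ctsk* at 228 against 227 CPM thus had a log2 difference of 1.07. *Ctsh*, at 252 against 245 CPM there, had 1.10. *Ctsh* lost its call without metaphyseal library 1 (adjusted p = 0.0616) or 2 (0.0651), and *Ctsz* without metaphyseal library 2 (0.0682). *Ctsk* at 215, 191 and 228 CPM did not pass (log2 difference 0.96 ± 0.40, edgeR adjusted p = 0.0595), and was called higher without the *Pdgfra-GFP* library (0.87, adjusted p = 5.39e-05).

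Along the stromal gates *Ctsc* stepped down from SC-like to mpMSC-like, dpMSC-like and OB-like cells in each of the 3 libraries. Late OB-like cells, which add osteocyte markers such as *Dmp1*, had 40.4, 51.9 and 16.9 CPM, within or near the OB range. *Ctsk* by contrast stayed between 121 and 252 CPM in all of these gates. Near-empty droplets held 101, 88.1 and 80.1 CPM of *Ctsc* and 121, 122 and 294 CPM of *Ctsk*.

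Endothelial cells (ECs) were gated as arterial (aEC), metaphyseal (mpEC) and bone marrow sinusoidal (bmEC), and the mean of these 3 gates was tested against mpMSC-like cells. The 338, 284 and 67 other EC-like cells that entered none of the 3 subset gates were left out of that mean, and had *Ctsb* at 933, 899 and 741 CPM, *Ctsl* at 654, 591 and 836 CPM and *Ctsd* at 424, 423 and 426 CPM. Of the 10 genes 1 was higher and 5 were lower, where 19.8% and 24.6% of all genes tested were called, and all 6 calls held under every alternative tried. *Ctsk* was between 0 and 26.7 CPM in the 9 EC sums, a log2 difference of -5.24 ± 0.42 (edgeR adjusted p = 2.94e-13), and *Ctsh* was between 0 and 80.3 CPM (-3.44 ± 0.31, edgeR adjusted p = 5.76e-12). *Ctsc* (-3.05 ± 0.37), *Cst3* (-2.30 ± 0.21) and *Ctsz* (-1.56 ± 0.17) were lower too. *Ctsd* was the gene that was higher (1.07 ± 0.22, edgeR adjusted p = 8.09e-05). *Ctsb* did not pass (0.43 ± 0.22, edgeR adjusted p = 0.118) and was called higher without the *Pdgfra-GFP* library (0.59, adjusted p = 4.95e-05).

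The mean over EC gates hid wide differences among them, which were noticed in the data and are given with no test. *Ctsl* was at 2256, 1860 and 3193 CPM in bmEC-like cells, against 450, 424 and 371 CPM in mpEC-like and 580, 463 and 477 CPM in aEC-like cells. The bmEC-like level was 5.01, 4.38 and 8.62 times the mpEC-like level of the same library. *Ctsb* was at 1425, 1381 and 1210 CPM in bmEC-like cells, against 789, 753 and 941 CPM in mpEC-like cells. *Ctsc* was at 170, 181 and 111 CPM, against 33.8, 37.9 and 13.3 CPM in mpEC-like cells and 0, 11.1 and 0 CPM in aEC-like cells. *Ctsd* was at 656, 653 and 461 CPM, against 362, 342 and 291 CPM. In each of these 4 genes the bmEC-like value was above the mpEC-like value in every library. *Ctsz* ran the opposite way, from 254, 194 and 233 CPM in aEC-like to 113, 90.3 and 111 CPM in bmEC-like cells. The macrophage markers summed to 4.76, 3.67 and 13.8 CPM in bmEC-like cells and to 3.48, 4.58 and 16.0 CPM in mpEC-like cells.

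**Figure D4:**
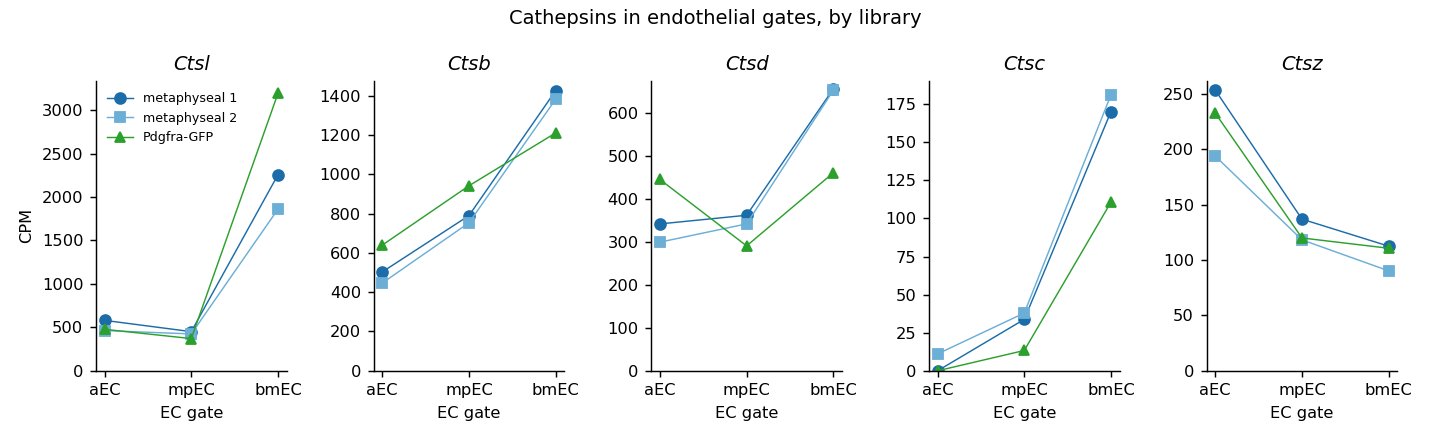
Levels in CPM (axes from 0) of 5 cathepsin genes in the aEC, mpEC and bmEC gates, with 1 line per library. *Ctsl*, *Ctsb*, *Ctsd* and *Ctsc* are higher in bmEC than in mpEC in all 3 libraries, and *Ctsz* falls from aEC to bmEC.

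Chondrocyte-like cells, gated by *Acan*, *Col2a1*, *Col9a1*, *Hapln1* and *Matn3*, had 2 genes higher and 4 lower than mpMSC-like cells, where 16.9% and 17.8% of all genes tested were called. *Cst3* was at 4921, 3167 and 14230 CPM against 1817, 2311 and 4785 CPM, higher in 3 of 3 libraries (log2 difference 1.57 ± 0.28, edgeR adjusted p = 2.36e-05). *Ctsc* was at 8.06, 1.40 and 4.81 CPM (-4.68 ± 0.48, edgeR adjusted p = 3.27e-10) and *Ctsl* at 160, 132 and 152 CPM (-1.84 ± 0.33, edgeR adjusted p = 2.12e-05). The inhibitor was higher while these 2 proteases were lower. *Ctsb* was at 179, 168 and 306 CPM (-1.11 ± 0.27), and *Ctsd* at 205, 218 and 344 CPM was higher (0.80 ± 0.25, edgeR adjusted p = 0.0106), a call lost without metaphyseal library 1 (0.87, adjusted p = 0.0895). Here too TMM moved genes towards the first population. The CPM of *Ctsd* was 1.18, 1.18 and 1.61 times that of mpMSC-like cells, beside a fitted 1.74 times. *Ctsk* was at 46.8, 33.7 and 104 CPM (-1.34 ± 0.43, edgeR adjusted p = 0.0139), a call lost without metaphyseal library 1 (-1.29, adjusted p = 0.140) or 2 (-1.02, adjusted p = 0.139). Superficial chondrocyte-like cells, gated by *Prg4* and *Cilp* in the *Pdgfra-GFP* library (153 cells), had the highest *Cst3* of the 18 gates, 15850 CPM. Chondrocyte-like cells of that library were at 14230 CPM.

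Fibroblast-like cells (180 cells of the *Pdgfra-GFP* library) had 1 gene higher and 1 lower than mpMSC-like cells, where 8.66% and 5.96% of all genes tested were called. *Ctsc* was at 5.98 CPM against 187 CPM in that library, a log2 difference of -4.50 ± 0.83 (edgeR adjusted p = 0.000100), and kept its call under every alternative. *Ctsd* was at 373 against 213 CPM (0.99 ± 0.34, edgeR adjusted p = 0.0420), a call lost without metaphyseal library 1 (0.94, adjusted p = 0.206) or 2 (1.06, adjusted p = 0.0725). *Ctsk* at 598 CPM (Poisson interval 555 to 644) was above every gate but the osteoclast gate, and did not pass (1.21 ± 0.55, edgeR adjusted p = 0.157), though it was called with stricter gates (1.81, adjusted p = 0.0343) and after thinning (1.59, adjusted p = 0.000243). *Oscar*, *Ocstamp*, *Dcstamp* and *Atp6v0d2* summed to 4.27 CPM in these cells and to 0.249 CPM in mpMSC-like cells of that library, and their part in the *Ctsk* level was not tested.

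Cystatin C and the cathepsins it inhibits were set against each other as *Cst3* UMIs per UMI of the 7 cysteine cathepsins, a ratio within each sum that needs no scaling and was given no test. It was 0.208, 0.390 and 0.401 in SC-like cells (mean 0.333 ± 0.108, SD, n = 3 libraries) and 0.809, 0.980 and 1.88 in mpMSC-like cells (1.22 ± 0.576). The ranges of these 2 gates did not overlap. *Ctsb*, whose SC-like level was known when the genes were chosen, is among the 7, so the SC-like ratio is a description only. The other stromal gates lay near mpMSC-like cells, at 1.39 ± 0.432 in dpMSC-like and 1.27 ± 0.543 in OB-like cells. Chondrocyte-like cells stood at 6.28, 4.63 and 14.5, and superficial chondrocyte-like cells at 13.6. The lowest ratios were those of bmEC-like cells, 0.0954, 0.0994 and 0.161. Macrophage-like cells had 0.474 and osteoclast-like cells 0.323, beside 0.401 in SC-like cells of the same library. The ranges of mpEC-like (0.2955 to 0.505), other EC-like (0.221 to 0.744) and erythroid cells (0.231 to 0.944) also overlapped the SC-like range. The ratio was higher in the *Pdgfra-GFP* library than in the metaphyseal libraries in each gate that all 3 libraries held, and in that library the near-empty droplets also held more *Cst3*. Its part in this was not tested.

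**Figure D5:**
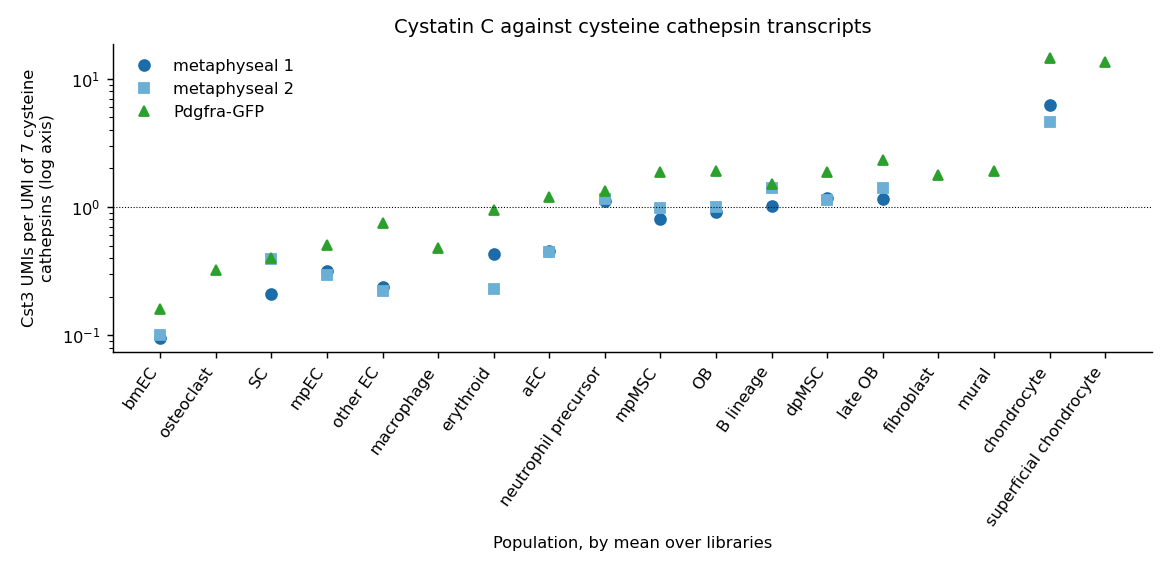
*Cst3* UMIs per UMI of the 7 cysteine cathepsins (log axis) in each gate, ordered by the mean over libraries, with 1 point per library and a dotted line at 1. SC points sit between 0.208 and 0.401, below the mpMSC points at 0.809 to 1.88, and chondrocyte points sit at 4.63 to 14.5.

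The order of levels over the 18 gates was in most places not resolved. Of the 17 pairs of neighbours in each order, the library ranges overlapped in 12 for *Ctsb*, 13 for *Ctsk*, 9 for *Ctsl*, 10 for *Ctsd* and *Ctsz*, 14 for *Ctss*, *Ctsh*, *Ctsc* and *Cst3*, and 15 for *Ctsa*. Macrophage-like cells were first for *Ctsb*, *Ctsd*, *Ctsz*, *Ctss*, *Ctsh* and *Ctsc*, and their single value did not overlap the next gate in any of these 6. Second places were held by bmEC-like cells for *Ctsb* (1339 ± 114 CPM, SD), by OB-like cells for *Ctsh* (404 ± 133) and by SC-like cells for *Ctsc* (512 ± 61.2). These places set means over 3 libraries against macrophages of 1 library. In the *Pdgfra-GFP* library *Ctsh* was at 252 CPM in OB-like cells, below SC-like cells (286 CPM) and superficial chondrocyte-like cells (261 CPM). The SC-like range of *Ctsc* did not overlap that of the third gate, mural-like cells, at 218 CPM. *Ctsl* was led by bmEC-like cells (2436 ± 685) and then dpMSC-like cells (1271 ± 24.6), without overlap. *Ctsz* had SC-like cells behind macrophage-like and osteoclast-like cells, at 520 ± 6.41 CPM, above dpMSC-like cells at 470 ± 34.8 CPM. *Ctss* in erythroid cells was at 465, 134 and 2.07 CPM, and the macrophage markers summed to 291, 51.4 and 6.21 CPM there.

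The wider lysosome was followed through fixed gene lists, read beside all genes tested. In SC-like against mpMSC-like cells 0 of 6 other cathepsins and legumain, 0 of 6 other cystatins, 0 of 9 lysosomal membrane genes, 0 of 25 other lysosomal hydrolases and cofactors, 0 of 15 vacuolar ATPase subunits, 0 of 6 mannose 6-phosphate sorting genes and 0 of 5 regulators were called in either direction by edgeR. Of these 72 genes 7 had an unadjusted edgeR p under 0.05, where 775 of all 12314 genes had one and were higher and 1104 were lower. The Wald test of DESeq2 called 1 of the 72, *Lgmn*, and 365 of all genes. *Lgmn* was singled out after its values were seen. In macrophage-like against mpMSC-like cells 13 of 25 hydrolases were higher and 1 was lower, with a median log2 difference of 1.44, and 10 of 15 vacuolar ATPase subunits were higher and 0 lower (median 1.02), beside 11.2% higher and 10.6% lower of all genes. *Atp6v0c*, the proton-carrying ring subunit, was at 1724 CPM against 327, 243 and 392 CPM (log2 difference 2.34). Of 9 lysosomal membrane genes 5 were higher and 3 lower, the latter including *Cd63* (-2.02) and *Laptm4b* (-1.87). Of 6 sorting genes 1 was higher, *M6pr*, a mannose 6-phosphate receptor (2.42), and 1 was lower, *Sort1* (-3.16). The medians were 1.05 and 0.03 in that order. In the other lists 1 of 6 other cathepsins and legumain, 2 of 6 other cystatins and 2 of 5 regulators were higher. Their medians were -1.225, 1.9 and 2.2, and 0 genes were lower. *Cstb*, the intracellular inhibitor stefin B, was at 1323 CPM against 144, 144 and 260 CPM, and *Lgmn*, which encodes legumain, the protease that matures several cathepsins, at 1052 CPM against 332, 327 and 352 CPM.

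In SC-like against macrophage-like cells 12 of 25 hydrolases and 9 of 15 vacuolar ATPase subunits were lower and 0 were higher, beside 9.65% lower and 7.68% higher of all genes. The medians were -1.49 and -1.14, against 0.14 over all genes. Of 9 lysosomal membrane genes 2 were higher, *Laptm4b* (2.14) and *Laptm4a* (1.51), and 3 were lower (median -0.89). Lower too were 1 of 6 other cathepsins and legumain, 1 of 6 other cystatins, 1 of 6 sorting genes and 2 of 5 regulators. Their medians were 1.903, -2.515, 0.037 and -1.698, and 0 genes were higher. *Lgmn* was at 451, 469 and 732 CPM in SC-like cells and was lower than in macrophage-like cells (-1.13 ± 0.34, edgeR adjusted p = 0.0172). Both comparisons share the macrophage sum.

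Against mpMSC-like cells, dpMSC-like cells were higher in 4 of 6 sorting genes, 5 of 25 hydrolases and 2 of 6 other cathepsins, with 0 lower in these 3 lists, beside 14.4% higher and 13.4% lower of all genes. Of 15 vacuolar ATPase subunits 2 were higher and 1 was lower. Of 9 lysosomal membrane genes 3 were higher and 0 lower, and 0 of 6 other cystatins and 0 of 5 regulators were called. *Ctso* was at 49.2, 48.4 and 48.9 CPM against 21.8, 30.2 and 26.0 CPM, and *Ctsf* at 165, 158 and 162 CPM against 70.6, 78.1 and 105 CPM. OB-like cells had 4 of 25 hydrolases higher and 7 lower, beside 16.8% and 19.7% of all genes. They had 4 of 15 vacuolar ATPase subunits higher and 1 lower, and 3 of 9 lysosomal membrane genes higher and 2 lower. Of 6 sorting genes 2 were higher and 2 lower, and of 5 regulators 1 was higher and 0 lower. Of 6 other cathepsins and legumain 0 were higher and 1 was lower, and 0 of 6 other cystatins were called. EC-like cells had 3 of 25 hydrolases higher and 7 lower, beside 19.8% and 24.6% of all genes. They had 3 of 15 vacuolar ATPase subunits higher and 0 lower, and 1 of 9 lysosomal membrane genes higher and 2 lower. Of 6 sorting genes 2 were higher and 1 lower, and of 6 other cathepsins and legumain 2 were higher and 1 lower. Of 6 other cystatins 0 were higher and 1 was lower. Of the 5 regulators 1 was higher and 1 lower in EC-like cells. *Mitf*, of the TFEB family, was lower, at 0.144, 1.27 and 1.55 CPM against 7.70, 1.78 and 2.36 CPM (log2 difference -2.31 ± 0.80, edgeR adjusted p = 0.01745). These levels were near the floor, and the gap was wide only in metaphyseal library 1. *Tfec*, of the same family, was at 11.2, 11.1 and 7.91 CPM in EC-like cells and at 0 CPM in all 3 mpMSC-like sums. Chondrocyte-like cells had 0 of 25 hydrolases higher and 9 lower, beside 16.9% and 17.8% of all genes. They had 3 of 9 lysosomal membrane genes higher and 2 lower, and 2 of 15 vacuolar ATPase subunits higher and 0 lower. Of 6 sorting genes 1 was higher and 1 lower, and of 5 regulators 1 was higher and 0 lower. Of 6 other cathepsins and legumain 1 was higher and 2 were lower. Of 6 other cystatins 1 was higher and 0 lower. *Cst6*, which encodes cystatin E/M, was at 1.61, 12.6 and 74.1 CPM against 0, 0 and 0.994 CPM. Fibroblast-like cells had 3 of 6 other cystatins higher, among them *Cst6* at 29.9 CPM and *Stfa3* at 24.8 CPM, and 1 of 25 hydrolases lower. All genes stood at 8.66% higher and 5.96% lower. Of 15 vacuolar ATPase subunits 3 were higher and 0 lower, and of 9 lysosomal membrane genes 1 was higher and 0 lower. Of 6 sorting genes 1 was lower, as was 1 of 6 other cathepsins and legumain, and 0 of 5 regulators were called. The Wald test of DESeq2 called 0 of the 6 other cystatins in chondrocyte-like and 0 in fibroblast-like cells, so the edgeR calls of *Cst6* and *Stfa3* were lost under it.

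Likeness was measured as Pearson's r of log2(mean CPM + 1) over the 18 gates among 12289 genes, as a description of points that share libraries. *Grn*, which encodes the lysosomal protein progranulin, was most like *Ctsb* (r = 0.909) and *Ctsd* (r = 0.909). The gene most like *Ctsk* was *Adcy3* (r = 0.879), that most like *Ctsl* was *Il6st* (r = 0.899), and that most like *Ctss* was *Clec4a3* (r = 0.967). *Sgpl1* was most like *Ctsz* (r = 0.890), *Tarbp2* most like *Ctsa* (r = 0.912), *Tent5a* most like *Ctsh* (r = 0.817), *Ccl24* most like *Ctsc* (r = 0.783) and *Bnip3* most like *Cst3* (r = 0.892). Among the 10 genes the closest pair was *Ctsb* and *Ctsd* (r = 0.861), followed by *Ctsz* and *Ctsa* (r = 0.796).

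By the Gencode M21 annotation of GRCm38, all 10 are protein-coding genes. *Ctsk* (chromosome 3, 95499256 to 95509362) and *Ctss* (chromosome 3, 95526786 to 95556403) are neighbours on the plus strand, and they peaked in different gates, osteoclast and macrophage. *Ctsc* lies on chromosome 7 from 88278085 to 88310888, *Cst3* on chromosome 2 from 148871722 to 148875692 and *Ctsb* on chromosome 14 from 63122462 to 63145923. *Ctsd*, *Ctsl* and *Ctss* each overlap an annotated gene on the same strand, so reads of the shared stretch could have been left uncounted or split.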

How the data were processed

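Per the labels and the methods, the authors processed reads with fastp 0.20 and STARsolo (STAR 2.7.3a; mm10, Gencode M23 plus H2B-GFP). The deposited counts are raw UMIs for every barcode, with no cell filter. Cells had at least 1500 genes (metaphyseal) or 1000 genes (*Pdgfra-GFP*), and at most 15% mitochondrial and 30% ribosomal UMIs. A marker was on when its UMIs passed a Poisson tail of 0.01 against 10% of the cell's UMIs drawn from near-empty droplets (at most 100 UMIs). Gate thresholds were set after marker UMIs and cell numbers were seen. Scrublet (scanpy 1.11.5) called doublets, which were kept and removed in an alternative. UMIs were summed per library and gate of at least 5 cells, and all sums entered 1 fit of edgeR 4.0.16 (TMM, filterByExpr, quasi-likelihood test, library term), with Benjamini-Hochberg adjustment over 12314 genes without the gate genes. The code was tested on simulated data. Alternatives were DESeq2 1.42.0, other filters and gates, thinning, no library term and leaving out each library. The genes and lists were chosen with earlier results of these data known. All 10 genes were described. From each list up to 3 called genes with the largest differences could be named. The EC subset and osteoclast values were singled out after they were seen.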

Additional observations from a re-analysis of the deposited data

Results flagged for a closer look

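Of 50 differences tested for dependence on the kind of library (5 comparisons of 10 genes, an interaction term in edgeR), 2 passed, both in chondrocyte-like against mpMSC-like cells. The log2 difference of *Ctsk* was -1.83 in the metaphyseal libraries and -0.69 in the *Pdgfra-GFP* library, and the 2 differed by -1.14 ± 0.31 (edgeR adjusted p = 0.0183). That of *Ctsh* was -1.51 in the metaphyseal libraries and 0.11 in the *Pdgfra-GFP* library, and they differed by -1.62 ± 0.28 (edgeR adjusted p = 3.98e-05). In this comparison 450 of 12310 genes passed the same test. The kinds of library differ in genotype, sort, dissected region and depth, which cannot be told apart, and the *Pdgfra-GFP* side is 1 library.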

How the results depend on the processing

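Of 38 calls among the 10 genes, 22 held under every alternative that could be fitted, and no called value changed sign. Of 930 values under an alternative, 41 lost a call, 26 gained one, and 43 uncalled values changed sign and stayed uncalled. Without the replicate block (the library term), calls fell from 2 to 0 in SC against mpMSC, from 8 to 5 in SC against macrophages, from 3 to 0 in dpMSC, from 4 to 1 in OB, from 6 to 3 in chondrocytes and from 2 to 1 in fibroblasts, each against mpMSC. Calls over all genes fell too, from 623 to 175 in SC against mpMSC and from 2134 to 1467 in SC against macrophages. Against mpMSC they went from 3423 to 1798 in dpMSC and from 4487 to 2625 in OB. In chondrocytes they went from 4271 to 2705 and in fibroblasts from 1800 to 1101. The cause was not tested. With the DESeq2 Wald test calls were 1 in SC and 1 in dpMSC against mpMSC, where calls over all genes went from 623 to 365 and from 3423 to 2914. Without a filter on low counts they were 3 in SC against mpMSC, with *Ctss* then called higher. Calls over all genes rose from 623 to 872 in that fit. Stricter gates and thinning each gave 4 in fibroblasts, while calls over all genes fell from 1800 to 1126 and 891. The macrophage *Cst3* ratio was 0.439 with stricter gates in place of 0.474. Leaving out a library gave 1 to 2 calls in SC, 0 to 6 in dpMSC, 2 to 5 in OB and 1 to 1 in fibroblasts against mpMSC. Over all genes, leaving out a library gave 242 to 341 calls in SC, 1973 to 3112 in dpMSC and 2986 to 3197 in OB against mpMSC. In fibroblasts it gave 1348 to 1355. DESeq2 size factors, doublet removal and a minimum of 500 genes per cell changed no call. No macrophage or fibroblast comparison could be fitted without the *Pdgfra-GFP* library. SC-like sums held 115199, 138651 and 1691527 UMIs, so in the metaphyseal libraries 3 counts stood for 26.0 and 21.6 CPM.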
